A study of Mus musculus with 4 samples.

Results

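Cytosolic ribosomal protein genes were examined in Naa10-knockout and wild-type mouse embryonic stem cells (ESCs), as 83 rows of the 14099 named rows of the expression tables. Members were taken by symbol: names of the form Rpl or Rps with a number, the P-stalk genes Rplp0, Rplp1 and Rplp2, and paralogs with an added letter, leaving out the Rps6k kinases. The 83 rows hold 84 symbols, since 1 joined row carries a pair of members. The Naa10-KO cells (2 libraries) and the wild-type cells (WT; 2 libraries) were hybrid C57BL/6-JF1 ESCs derived from the inner cell mass of blastocysts, from Naa10-/X C57BL/6 mothers crossed with wild-type JF1 fathers, and the WT cells came from littermates. Both groups were grown in N2B27 with the Mek inhibitor PD325901, the Gsk3 inhibitor Chir99021 and LIF, over 5 passages on irradiated embryonic fibroblast feeders and then 5 passages without feeders. The titles call the replicates biological but do not say whether they were separate lines or cultures of 1 line, so the p-values measure only the spread between these libraries. Naa10 carries the catalytic activity of NatA, a ribosome-bound complex that acetylates the amino termini of nascent proteins.

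The cytosolic ribosome is built from a small and a large subunit, each made of ribosomal RNA and a fixed set of proteins, most of them needed in equal numbers. The mRNAs of these proteins are among the most abundant of dividing cells, and they start with a C followed by a run of pyrimidines, the 5′ terminal oligopyrimidine (TOP) tract through which mTORC1 and Larp1 control their translation. Several members have copies made by reverse transcription of their mRNA, which lack the introns of the parent gene, and some of these copies are themselves expressed.

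Levels are in RPKM, which corrects read numbers for transcript length and for the size of the library, from polyadenylated RNA. Differences are on the log2(RPKM + 1) scale, Naa10-KO minus WT, and were tested with limma over 11912 rows with Benjamini-Hochberg adjustment and a threshold of 0.05. The row that carries Naa10 together with its neighbour Renbp had 28.9 and 34.4 RPKM in the Naa10-KO libraries, against 105 and 106 RPKM in the WT libraries, a log2 difference of -1.71 (limma adjusted p = 0.0342, and 0.366 and 0.355 without WT replicate 1 and WT replicate 2). The summed RPKM of 22 fibroblast marker rows was 1422 and 625 in Naa10-KO replicates 1 and 2, against 610.1 and 620 in the WT libraries. Of these rows, 20 lay above both WT libraries in Naa10-KO replicate 1 and 3 did so in replicate 2, and none was at 0. Over the 21 of them that were tested, the median difference from the WT mean was 1.17 in replicate 1 and -0.32 in replicate 2. Fn1 had the smallest p of these markers and was 1 of the 3 above both WT libraries in replicate 2. It had 254 and 231 RPKM in Naa10-KO, against 188 and 189 RPKM in WT. The summed RPKM of 12 ESC marker rows was 4153 and 5349 in Naa10-KO, against 5142 and 5223 in WT. Of these rows, 2 were above both WT libraries in Naa10-KO replicate 1 and 9 in replicate 2, and over both Naa10-KO libraries 2 were higher and 2 lower. Over the 12 ESC marker rows, the median difference from the WT mean was -0.40 in replicate 1 and 0.25 in replicate 2. Dppa5a, in a row joined with Ooep, had the smallest p of the ESC markers and was 1 of the 2 lower. It had 1698 and 2018 RPKM in Naa10-KO, against 2476 and 2578 RPKM in WT. In RNA from a whole culture, fewer cells of a type and less RNA per cell cannot be told apart, and the part of the fibroblast signal in the differences described here was not tested.

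One ribosomal protein row, Rps4l, differed between the groups past the threshold. Rps4l, a processed copy of Rps4x, had 611 and 625 RPKM in the Naa10-KO libraries, against 363 and 359 RPKM in the WT libraries. Both Naa10-KO libraries were above both WT libraries, and the libraries of each group lay close together. The row rose 1.71-fold, with a log2 difference of 0.78 and an SE of 0.06 (limma adjusted p = 0.0418, n = 2 in each group). Over all tested rows 0.218% passed as higher, 0.546% as lower and 0.764% in either direction, so 1 of 83 is close to the background. Its parent Rps4x, an X-linked gene for a small-subunit protein, had 1578 and 1908 RPKM in Naa10-KO, against 1573 and 1611 RPKM in WT. The groups of Rps4x overlapped, and its difference of 0.12 did not pass (limma adjusted p = 0.553). With the small RNA rows and all rows holding a 0 removed, the adjusted p of Rps4l was 0.0822, and it was 0.0566 after a correction for GC content, with the difference at 0.67. In all, 6 of the 12 alternatives that kept every library ended the call, the others being no filter on low values, no mean-variance trend and the replicate number as a block, with or without the GC correction. Without WT replicate 1 or WT replicate 2 the adjusted p was 0.762 and 0.765, where the spread comes from the Naa10-KO pair and is taken to hold for the single WT library, and it was 0.00541 and 0.00297 without Naa10-KO replicate 1 and replicate 2. Its direction was the same in all 16 alternatives. Counts of ribosomal protein rows past the threshold are not given for fits without 1 library, which leave a single library in 1 group.

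GENCODE M21 annotates Rps4l as a transcribed processed pseudogene with 1 exon on chromosome 6, and Rps4x as a gene of 7 exons on chromosome X. The copy and the coding part of Rps4x aligned over 789 bases with 157 mismatches, an identity of 80.1%, and the longest identical run was 35 bases. The first 150 bases are shown because they bear on how far reads of the copy and the parent can be told apart, with the 31 mismatched bases in capitals.
Rps4l: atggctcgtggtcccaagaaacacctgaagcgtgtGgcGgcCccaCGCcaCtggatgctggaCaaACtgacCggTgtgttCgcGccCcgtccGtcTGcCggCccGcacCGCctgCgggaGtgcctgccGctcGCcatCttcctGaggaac
Rps4x: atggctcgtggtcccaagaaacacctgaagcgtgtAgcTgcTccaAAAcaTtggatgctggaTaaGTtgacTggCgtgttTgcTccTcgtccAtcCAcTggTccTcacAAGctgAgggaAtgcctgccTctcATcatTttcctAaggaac
Apart from the identical run at the start, mismatches are spread along the stretch. The sources used here do not say how reads that match more than 1 place were assigned.

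TOP tracts were sought in RefSeq windows around annotated gene starts (GRCm38.p6), as a C followed by at least 4 letters each C or T on the sense strand, beginning within 5 bases of the start. RefSeq windows were found for 63 of the 84 symbols, with 75 windows in all. Such a tract was in 31 of the 75 windows (41.3%), against 18.3% of 32851 windows of all genes, and it began exactly at the start in 13 (17.3%), against 2.51% of all. The windows below belong to 5 members described in the results that follow, 3 with both Naa10-KO libraries above both WT libraries and 2 with both below, and are shown because the tract is present in both sets. The annotated start is base 11 of each 30-base window and the tract is in capitals.
Rpl28 (chr7:4792955-4792984, plus strand): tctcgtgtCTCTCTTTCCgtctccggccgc
Rps26 (chr10:128626487-128626516, minus strand): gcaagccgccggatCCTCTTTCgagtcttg
Rplp2 (chr7:141447641-141447670, plus strand): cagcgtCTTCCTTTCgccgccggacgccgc
Rps15a (chr7:118116128-118116157, minus strand): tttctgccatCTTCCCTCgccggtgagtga
Rpl35a (chr16:33056472-33056501, plus strand): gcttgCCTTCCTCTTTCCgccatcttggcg
Of the 29 rows with a tract, 11 were higher in each Naa10-KO library than in each WT library and 9 were lower in each, with a median difference of 0.03; over all tested rows the shares were 24.4% and 34.9%. Of the 34 rows with a window and no such tract, 8 were higher in this sense and 11 lower, with a median of -0.04. A match describes these letters only.

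Over the whole set, the ribosomal protein rows were split about evenly between higher and lower values. Of the 83 rows, 26 (31.3%) were higher in each Naa10-KO library than in each WT library, against 24.4% of all tested rows, and 28 (33.7%) were lower in each, against 34.9%. In the other 29 rows (34.9%) the groups overlapped, against 40.7% of all rows. After each library was centred on its median, the split was 33 above and 17 below. Centring shifts all rows of a library alike, and the shares over all rows under it are not given here. The median difference was -0.01 over the ribosomal protein rows and -0.06 over all tested rows. In Naa10-KO replicate 1, 33 rows were above both WT libraries and 41 below, where the shares over all rows were 38.3% above and 54.6% below. In Naa10-KO replicate 2, 39 were above and 39 below, where the shares over all rows were 41.8% and 48.3%. In 15 rows (18.1%) 1 Naa10-KO library was above the WT pair and the other below it, against 25.3% of all tested rows.

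**Figure D1:**
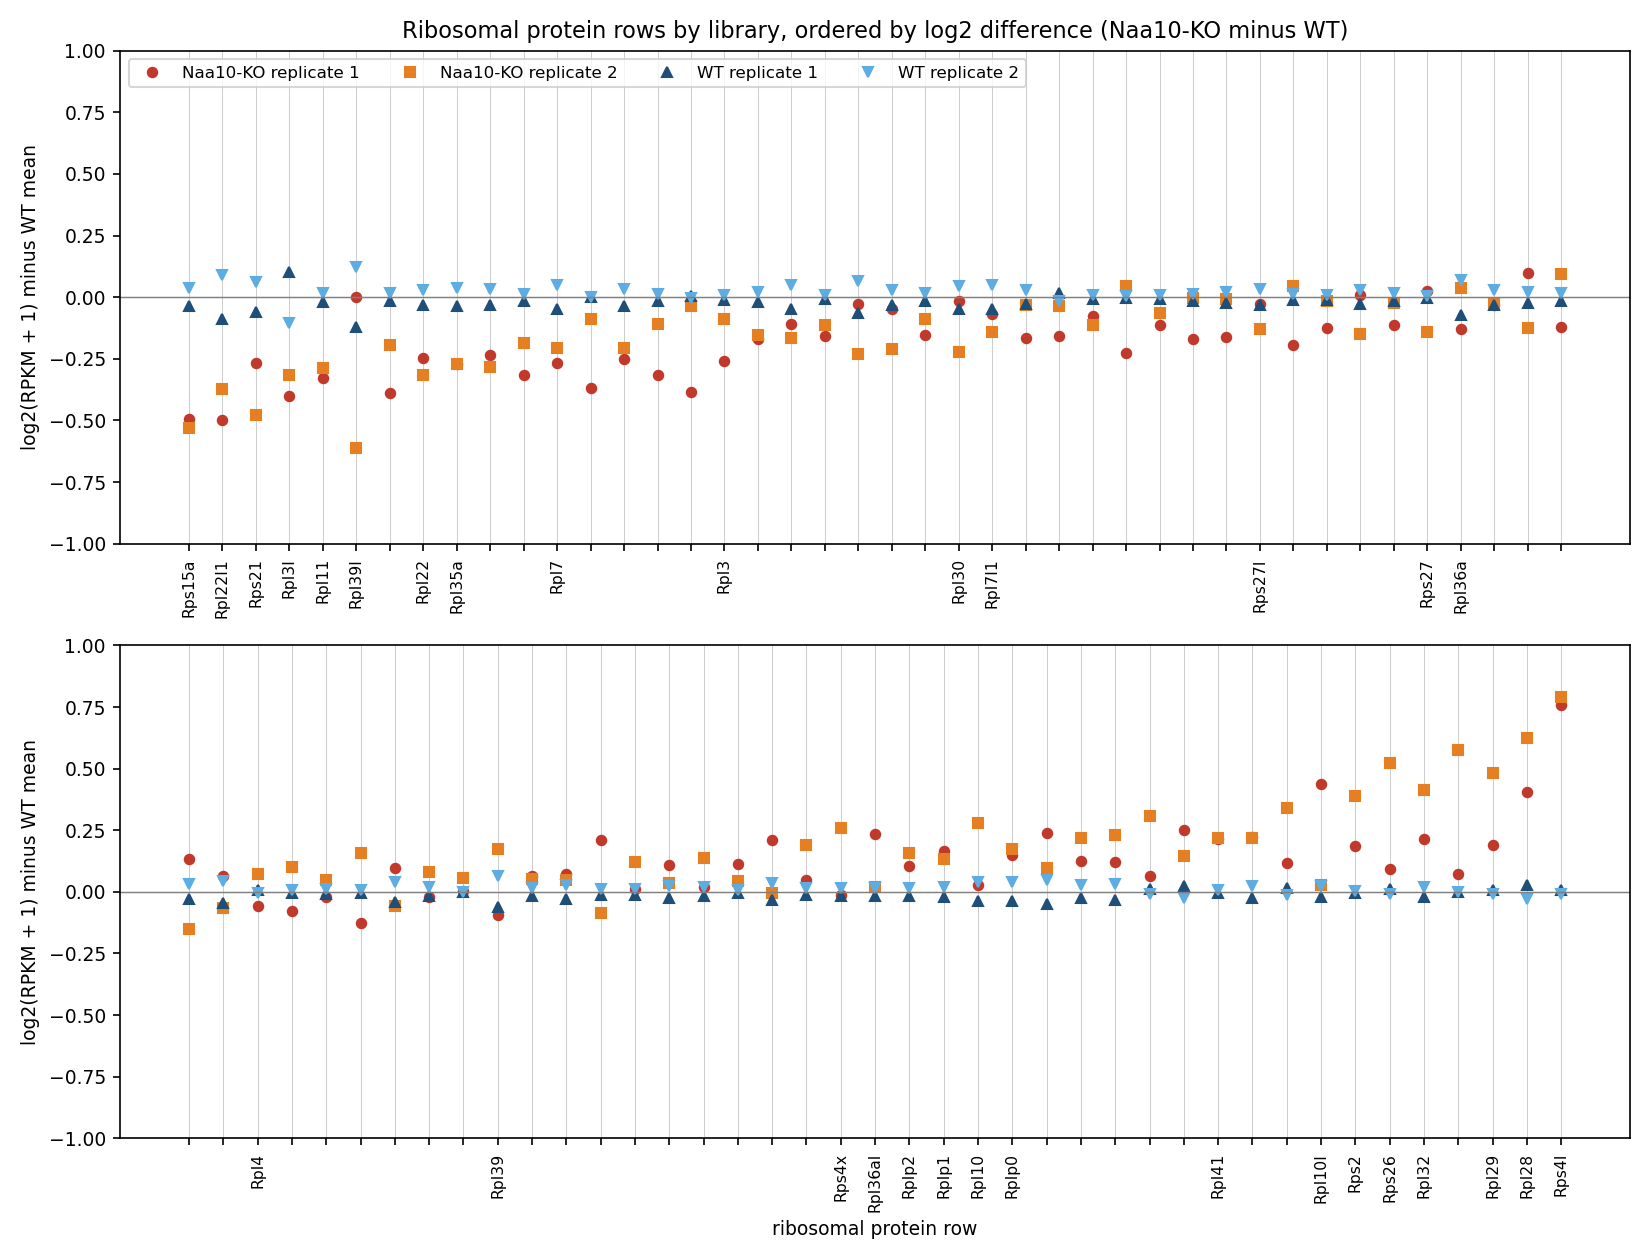
Each column is 1 ribosomal protein row, ordered by its log2 difference over both panels, and each symbol is 1 library's log2(RPKM + 1) minus the mean of the 2 WT libraries, with names for rows described in the text. The WT libraries stay near 0, the Naa10-KO libraries spread to both sides, and Rps4l at the right end has both Naa10-KO libraries far above WT.

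The differences were small beside those over all tested rows. All tested rows include rows near 1 RPKM, while 72 of the ribosomal protein rows averaged 500 RPKM or more. Rows of like level were not compared. A difference of 0.3 or more in either direction was seen in 12 rows (14.5%), against 36.8% of all tested rows. The median absolute difference between the groups was 0.13 for ribosomal protein rows and 0.22 for all rows. Between the 2 Naa10-KO libraries it was 0.13, against 0.25 for all rows, and between the 2 WT libraries 0.04, against 0.05. The typical distance between the Naa10-KO libraries was as large as the difference between the groups. At an unadjusted p under 0.05 there were 17 ribosomal protein rows, 6 higher and 11 lower (20.5%), against 22.1% of all rows.

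**Figure D2:**
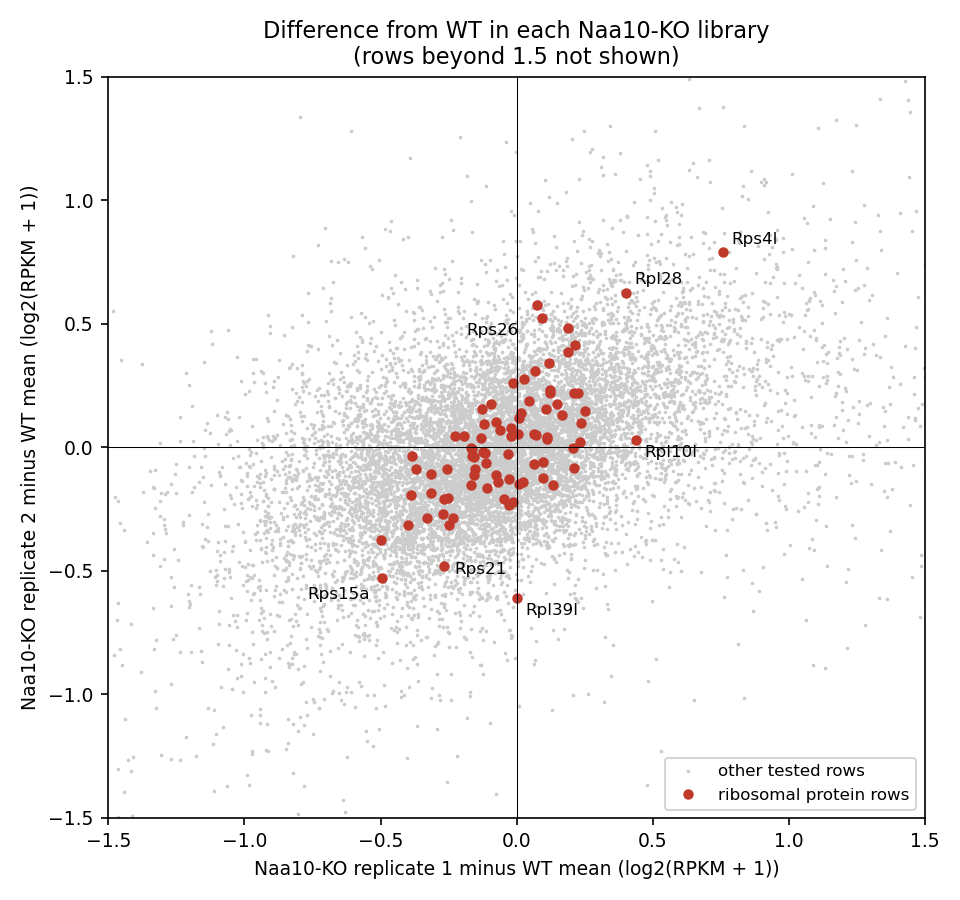
Each point is 1 tested row, with its difference from the WT mean in Naa10-KO replicate 1 on the x axis and in replicate 2 on the y axis (log2(RPKM + 1)). Ribosomal protein rows, in red, sit in a compact cloud around 0, with Rps4l at the upper right and Rpl39l far below 0 in replicate 2 only.

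The set made up 18.7% and 18.4% of the summed RPKM in the Naa10-KO libraries, against 17.6% and 18.1% in the WT libraries. With rows at 0 and small RNA rows left out of the sums, the shares were 23.9% and 24.5% in Naa10-KO, against 24.0% and 24.3% in WT, and the groups overlapped. The median row had 1379.8 and 1419 RPKM in Naa10-KO, against 1465 and 1475 RPKM in WT. No row was at 0 in any library. On average 72 rows were at 500 RPKM or more and 53 at 1000 or more, and 53 of the 100 highest rows of the table were ribosomal protein rows. By the mean over all libraries Rps26 was the highest, with Rpl41 and Rplp1 after it, and Rpl3l, Rpl39l and Rpl10l were the lowest. Rps26 was above Rpl41 only in Naa10-KO replicate 2, with 6347 against 5324 RPKM. In Naa10-KO replicate 1 and both WT libraries Rpl41 was the higher.

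Among large-subunit genes, 18 of 52 rows had both Naa10-KO libraries above both WT libraries and 17 had both below, against 24.4% and 34.9% of all tested rows, with a median difference of 0.01. Rpl28 had 3713 and 4334 RPKM in Naa10-KO, against 2863 and 2754 RPKM in WT. The groups were apart and the difference was 0.51 (SE 0.10), but it did not pass (limma adjusted p = 0.132). Rpl29, which mice can live without, had 1691 and 2075 RPKM in Naa10-KO, against 1493 and 1475 RPKM in WT, a difference of 0.34 (limma adjusted p = 0.230). Rpl32 had 2608 and 2997 RPKM in Naa10-KO, against 2218 and 2279 RPKM in WT. Its difference was 0.31 (limma adjusted p = 0.190), with both Naa10-KO libraries on the high side. Rpl41, which encodes the smallest protein of the ribosome, had 5302 and 5324 RPKM in Naa10-KO, against 4557 and 4592 RPKM in WT, a difference of 0.22.

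On the low side, Rpl11 had 1379.8 and 1419 RPKM in Naa10-KO, against 1711 and 1754 RPKM in WT. Rpl11 joins Rpl5 and the 5S RNA in a particle that also binds Mdm2, and its difference of -0.31 did not pass (limma adjusted p = 0.136). Rpl22 had 139 and 133 RPKM in Naa10-KO, against 162 and 169 RPKM in WT, a difference of -0.28. Its paralog Rpl22l1, whose expression Rpl22 is known to restrain in mouse cells, had 44.9 and 49.1 RPKM in Naa10-KO, against 59.99 and 68.1 RPKM in WT, a difference of -0.44. Both members of this pair were lower in both Naa10-KO libraries, and neither passed (limma adjusted p = 0.150 and 0.145). Rpl35a had 767 and 767 RPKM in Naa10-KO, against 903 and 948 RPKM in WT. Its Naa10-KO values were equal at this precision, and its difference of -0.27 did not pass (limma adjusted p = 0.148).

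The P-stalk, which recruits the elongation factors to the large subunit, is formed by Rplp0, Rplp1 and Rplp2. Rplp0 had 2302 and 2345 RPKM in Naa10-KO, against 2022 and 2133 RPKM in WT. Rplp1 had 3889.6 and 3794 RPKM in Naa10-KO, against 3418 and 3509.5 RPKM in WT. Rplp2 had 1255 and 1299.8 RPKM in Naa10-KO, against 1153 and 1178 RPKM in WT. All 3 had both Naa10-KO libraries above both WT libraries, with differences of 0.16, 0.15 and 0.13, and none passed (limma adjusted p = 0.274, 0.295 and 0.314).

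Among small-subunit genes, 8 of 32 rows had both Naa10-KO libraries above both WT libraries and 11 had both below, against the same 24.4% and 34.9%, with a median difference of -0.07. Rps26, which lies at the exit of the mRNA channel, had 4706 and 6347 RPKM in Naa10-KO, against 4447 and 4386 RPKM in WT. Replicate 2 was well above WT and replicate 1 only slightly, and the difference of 0.31 did not pass (limma adjusted p = 0.356). Rps2 had 3461 and 3976 RPKM in Naa10-KO, against 3028 and 3048 RPKM in WT, a difference of 0.29 (limma adjusted p = 0.209). On the low side, Rps21 had 750.1 and 647 RPKM in Naa10-KO, against 866 and 942 RPKM in WT, a difference of -0.37 (limma adjusted p = 0.171).

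Rps15a had the most negative difference of the set. It had 41.7 and 40.7 RPKM in Naa10-KO, against 57.7 and 60.7 RPKM in WT, a difference of -0.51 (SE 0.07, limma adjusted p = 0.0974). Both Naa10-KO libraries were below both WT libraries, at a level far under that of most members. Its pseudogene row Rps15a-ps6 had 54.8 and 55.8 RPKM in Naa10-KO, against 76.5 and 82.5 RPKM in WT, a difference of -0.52. Rps15a-ps4, in a row joined with Gmeb1, had 42.9 and 50.8 RPKM in Naa10-KO, against 62.3 and 70.8 RPKM in WT, a difference of -0.50. The coding part of Rps15a is 98.7% identical to Rps15a-ps6, with 5 mismatches, and 97.4% identical to Rps15a-ps4. The longest identical runs were 136 and 140 bases, so reads could be shared among the 3 rows and their separate levels are uncertain.

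The other copies covered a wide range of levels. Rpl10l, a copy of the X-linked Rpl10 that replaces it in male germ cells of the mouse, had 31.9 and 23.8 RPKM in Naa10-KO, against 22.9 and 23.7 RPKM in WT. Only replicate 1 stood clear of WT, and the difference of 0.23 did not pass (limma adjusted p = 0.451). Rpl39l, a copy of Rpl39, had 6.95 and 4.20 RPKM in Naa10-KO, against 6.29 and 7.63 RPKM in WT, so the groups overlapped. Rpl36al had 376 and 324 RPKM in Naa10-KO, against 316 and 323 RPKM in WT, with replicate 2 barely above WT. These 3 copies have 1 coding exon each and were 84.8%, 85.3% and 87.9% identical to their X-linked parents. Rpl10 had 1555 and 1849 RPKM in Naa10-KO, against 1485 and 1565 RPKM in WT. Rpl39 had 861 and 1038 RPKM in Naa10-KO, against 880 and 959 RPKM in WT. The third parent, Rpl36a, had 895 and 1007 RPKM in Naa10-KO, against 933 and 1029 RPKM in WT. The groups overlapped for all 3 parents. Over the 4 X-linked rows, with Rps4x, Naa10-KO replicate 1 had a median difference of -0.05 from the WT mean and replicate 2 one of 0.22.

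Rpl3l, the form of Rpl3 found in striated muscle, had 1.32 and 1.46 RPKM in Naa10-KO, against 2.29 and 1.85 RPKM in WT, a difference of -0.36 at the lowest level of the set. Rpl3 itself, in a row joined with Snord43, had 1096 and 1232 RPKM in Naa10-KO, against 1301 and 1320 RPKM in WT. Both rows were lower in both Naa10-KO libraries and neither passed (limma adjusted p = 0.239 and 0.320). Rps27l had 451 and 420 RPKM in Naa10-KO, against 449.6 and 469.6 RPKM in WT, and its paralog Rps27 had 3429 and 3056 RPKM in Naa10-KO, against 3363 and 3379.9 RPKM in WT. Rpl7l1 had 86.2 and 82.0 RPKM in Naa10-KO, against 87.4 and 93.6 RPKM in WT, and Rpl7 had 1359 and 1416 RPKM in Naa10-KO, against 1582 and 1691 RPKM in WT. The groups overlapped for Rps27l and Rps27, and both Rpl7 rows were lower in both Naa10-KO libraries without passing. Identity was 73.7% for Rps27l with Rps27, 70.9% for Rpl22l1 with Rpl22, 74.1% for Rpl3l with Rpl3 and 54.8% for Rpl7l1 with Rpl7. Rpl14, 99.4% identical to Rpl14-ps1, had 662 and 725 RPKM in Naa10-KO, against 728 and 757 RPKM in WT, and its pseudogene row had 470.4 and 494 RPKM in Naa10-KO, against 514 and 524 RPKM in WT. Reads could be shared between those rows too, with an identical run of 419 bases.

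**Figure D3:**
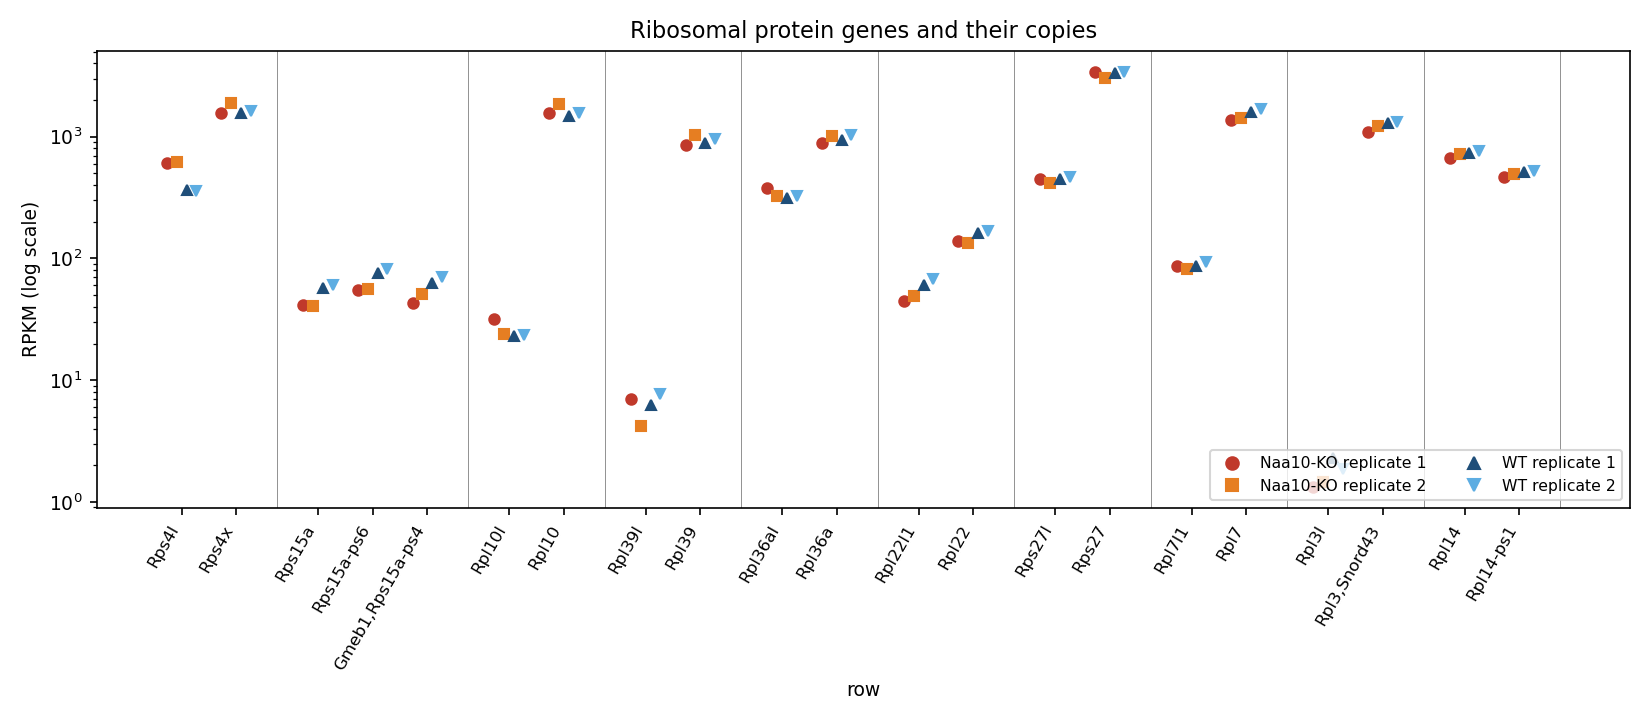
RPKM on a log axis for ribosomal protein genes beside their copies, with Naa10-KO libraries left of WT libraries within each row. Rps4l is clearly higher in both Naa10-KO libraries while its parent overlaps with WT. Rpl10l and Rpl36al are barely above WT in Naa10-KO replicate 2, and their parents overlap with WT, as do Rpl39l and Rpl39. Rps15a and both its pseudogene rows are lower together.

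Members in joined rows share their value with a neighbour. Rpl4, joined with Snapc5, had 1838 and 2012 RPKM in Naa10-KO, against 1924 and 1906 RPKM in WT. Rpl30, joined with Gm12191, had 1189 and 1029 RPKM in Naa10-KO, against 1161 and 1239.7 RPKM in WT. The groups overlapped in both rows. Many members have snoRNA genes inside their span on the same strand, and whether these lie in introns was not checked. Of 28 such rows, 8 lay above and 9 below, with a median difference of 0.01. Of the 55 others, 18 lay above and 19 below, with a median of -0.05. For all tested rows the shares were 24.4% above and 34.9% below.

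Some ribosomal proteins have symbols outside the rule, and 4 rows carry them. Fau, which makes Rps30 fused to a ubiquitin-like protein, had 1258 and 1296 RPKM in Naa10-KO, against 1104 and 1121 RPKM in WT. Rpsa had 1488 and 1750.1 RPKM in Naa10-KO, against 1334 and 1345 RPKM in WT. Gnb2l1, the small-subunit scaffold Rack1, had 1292 and 1432 RPKM in Naa10-KO, against 1376 and 1409 RPKM in WT. Fau and Rpsa were higher in both Naa10-KO libraries, Gnb2l1 overlapped, and 0 of 4 rows passed limma's test (1 at an unadjusted p under 0.05). Of all tested rows, 24.4% were higher in this way, 40.7% overlapped, 0.764% passed and 22.1% had an unadjusted p under 0.05.

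GC content varied with the differences. Across the 83 rows, transcript GC content had a Spearman correlation of 0.35 with the difference of Naa10-KO replicate 1 from the WT mean, of 0.38 with that of replicate 2, and of 0.36 with the difference between the 2 WT libraries. These points share their libraries and the same WT values. Over 11612 rows the values were 0.09, 0.29 and 0.22. The median GC content was 54.8% in rows with both Naa10-KO libraries above WT, 49.8% in rows with both below and 50.6% in the rest. After a GC correction chosen after seeing the data, 21 rows lay above and 29 below. The shares over all rows after this correction are not given here.

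**Figure D4:**
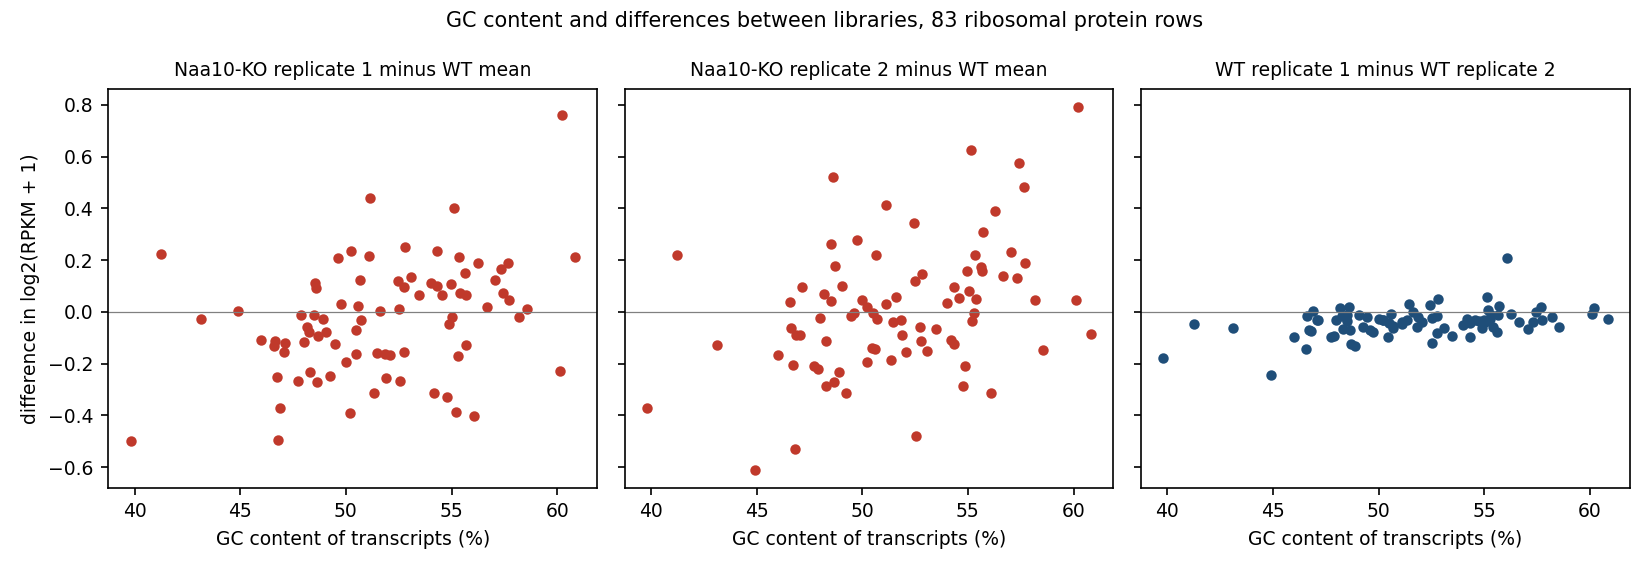
Transcript GC content against the difference in log2(RPKM + 1) for the 83 ribosomal protein rows, in each Naa10-KO library from the WT mean and between the WT libraries. All 3 panels slope upward, with a narrow spread between the WT libraries.

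The rest of the translation machinery was described from lists. Over all tested rows 0.764% passed, 22.1% had an unadjusted p under 0.05, 24.4% lay above and 34.9% below. Of 12 elongation factor rows, 0 passed limma's test (1 at an unadjusted p under 0.05), 7 lay above and 2 below, and the median difference was 0.06. Eif5a, which helps the ribosome through proline stretches, had 1698 and 1699 RPKM in Naa10-KO, against 1219 and 1256 RPKM in WT (difference 0.46, limma adjusted p = 0.0959). Eef1a1 was listed at 0 in Naa10-KO replicate 2, with 6218 RPKM in replicate 1, against 6792 and 6817 RPKM in WT, and is named for that 0. Of 37 initiation factor rows, 0 passed (6 at an unadjusted p under 0.05), 17 lay above and 10 below, with a median of 0.05. Eif4a2, an RNA helicase in a row joined with Snora81 and Snord2, had 50.5 and 70.5 RPKM in Naa10-KO, against 181 and 185 RPKM in WT (difference -1.60, limma adjusted p = 0.0803). Of 17 rows of other TOP mRNAs, 0 passed (2 at an unadjusted p under 0.05), 8 lay above and 3 below, with a median of -0.03. That list also holds Eef1a1, 1 of the 3 below, and without it the median was -0.0041. The row of Hnrnpa1 and Gm5643 had 535 and 554 RPKM in Naa10-KO, against 629 and 657 RPKM in WT (limma adjusted p = 0.166).

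Genes that make and assemble ribosomes had 1 row past the threshold. Of 58 assembly factor rows, 0 rose and 1 fell, where 0.218% of all rows passed as higher and 0.546% as lower. Of the same rows 25 lay above and 11 below, against 24.4% and 34.9% of all rows, and the median was 0.09. Nip7, needed for pre-rRNA processing, had 41.9 and 40.4 RPKM in Naa10-KO, against 74.4 and 75.6 RPKM in WT, a fall with a log2 difference of -0.85 (SE 0.07, limma adjusted p = 0.0451). Its adjusted p lay between 0.00279 and 0.925 over the alternatives, with the highest values, 0.925 and 0.869, without WT replicate 1 and WT replicate 2, and 9 of the 12 alternatives that kept every library ended the call. With the small RNA rows and all rows holding a 0 removed, 0 of 11657 rows passed limma's test (2624 at an unadjusted p under 0.05), the Naa10 row included. Of 13 rows of the RNA polymerase I machinery, 0 passed (3 at an unadjusted p under 0.05), 3 lay above and 5 below. Taf1d, a subunit of its selectivity factor that also carries snoRNA genes, had 63.2 and 40.3 RPKM in Naa10-KO, against 185 and 180.0 RPKM in WT (difference -1.83, limma adjusted p = 0.0890). The list of snoRNA host rows held only Gas5 and Snhg genes. All 8 lay below WT in both Naa10-KO libraries, against 34.9% of all rows, with a median of -0.74. Of these, 0 passed (7 at an unadjusted p under 0.05, against 22.1% of all rows). The 28 ribosomal protein rows with snoRNA genes inside did not share this, with 8 above, 9 below and a median of 0.01. Gas5, whose spliced RNA also has TOP features, had 61.3 and 48.6 RPKM in Naa10-KO, against 100.1 and 104 RPKM in WT (limma adjusted p = 0.101). Of 12 rows of factors that meet the nascent chain, 0 passed (3 at an unadjusted p under 0.05), 3 lay above and 7 below, with a median of -0.12. Naa16, a paralog of the NatA anchor subunit, had 8.30 and 8.75 RPKM in Naa10-KO, against 12.0 and 12.0 RPKM in WT (limma adjusted p = 0.136). Of 15 mTORC1 and TOP regulator rows, 0 passed (5 at an unadjusted p under 0.05), 8 lay above and 2 below, with a median of 0.10. The list includes Myc and joins parts of mTORC1 with its inhibitors, so its median gives no direction for the pathway. Myc, a transcription factor that drives ribosome production, had 45.9 and 41.0 RPKM in Naa10-KO, against 21.4 and 21.3 RPKM in WT (difference 0.99, limma adjusted p = 0.0540).

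**Figure D5:**
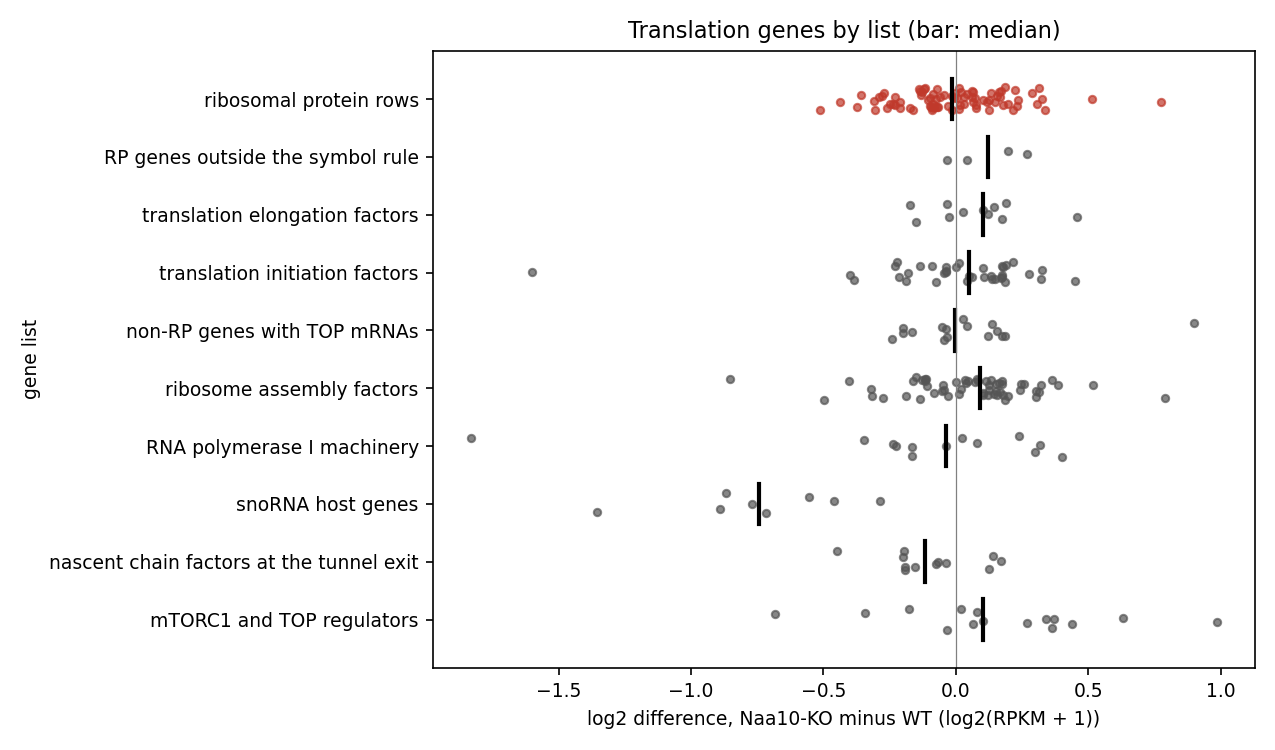
Each point is 1 row's log2 difference, Naa10-KO minus WT, grouped by list, with a bar at the median of the rows drawn; the row of Eef1a1, listed at 0 in 1 library, is not drawn, which puts the bar of the elongation factors at 0.10 and that of the other TOP mRNAs at -0.0041. Ribosomal protein rows centre near 0, and the snoRNA host rows, which are Gas5 and Snhg genes only, all lie below it.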

How the data were processed

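Polyadenylated RNA of 2 Naa10-KO and 2 WT libraries was read from 1 deposited table per library. The values are RPKM made by the authors, per the file headers; Cufflinks, bedtools and the mm9 build are named in the submitters' processing notes, without versions, and no source used here names the aligner or the annotation. The tables hold no counts, so depth is unknown. Log2(RPKM + 1) was fitted, for rows that reached 1 RPKM in 2 or more of the 4 libraries, with limma 3.58.1 in R 4.3.3 with a mean-variance trend, over all tested rows, with Benjamini-Hochberg adjustment. Groups came from the sample titles. The script was tested on simulated data. Spreads there were shuffled across rows and alike in both groups, so the rates are not specific to ribosomal protein rows. The script recovered 0 of 66 rows changed by a log2 of 0.5 past the threshold. At a log2 change of 1.0 it recovered 8 of 67 rows, and at 2.0 it recovered 43 of 67. A row that did not pass is therefore not shown to be unchanged. Transcript GC content and copies came from GENCODE M21 and start windows from RefSeq GRCm38.p6, used for properties only. Named rows were those past the threshold, the 8 largest differences each way among rows whose groups were apart, the 3 largest differences between the Naa10-KO libraries, the 3 highest and 3 lowest rows, joined rows, copies with parents, the P-stalk, and the smallest p of each list; a few rows that the rule names are not reported here. Members and lists were chosen with earlier results of these data known. Pseudocount, filter, scaling, trend, replicate block and left-out libraries were varied. Classes of the residue after the first methionine were not analysed here. With 2 libraries in each group, an exact permutation test cannot go below 0.333.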

Additional observations from a re-analysis of the deposited data

How the results depend on the processing

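The count of ribosomal protein rows past the threshold, 1 in the reported fit, was 0 without a filter on low values, with rows at 0 and small RNA rows left out, without the trend, with the replicate number as a block, and with the GC correction with or without that block, where 7 to 20 rows had an unadjusted p under 0.05 in limma. It was 24 without Naa10-KO replicate 1, 31 without replicate 2, and 0 without either WT library, a range of 0 to 31; over all tested rows these counts were 4938, 7081, 12 and 15. Ribosomal protein rows with both Naa10-KO libraries below WT were 17 after median centring, where the share over all rows is not given here. Leaving out 1 library gave 26 to 39 rows above and 28 to 41 below. The median difference was 0.052 after median centring, 0.012 after quantile normalization, -0.046 after cyclic loess, -0.040 after the GC correction with or without the block, and -0.039 to 0.0085 over left-out libraries. The difference in the share of summed RPKM, 0.70 percentage points, was 0.0158 with rows at 0 and small RNA rows left out and 0.206 with small RNA rows and the 10 highest rows left out of the total. The cause of these moves was not tested.

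Replicate numbers do not pair the samples in the labels, and deviations of same-numbered libraries correlated at -0.21. Under the block, the adjusted p of Rps4l in limma was 0.119, and 44 rows of the table passed in place of 91. With crossed numbers, an alternative added after seeing the data, 1 ribosomal protein row and 133 of all rows passed. For 49 named rows under 12 settings that kept every library, 560 of 587 values kept both their sign and their side of the threshold. Of the others, 16 lost the call, 4 gained it and 7 changed sign. The changes of sign were all among small differences that did not pass. With median centring the rows that changed sign were Gnb2l1 0.032, Rpl36a 0.019 and Rps27 0.0064. With quantile normalization it was Rpl36a at 0.012, and with cyclic loess Rpl4 at -0.032. With the GC correction, with or without the block, it was Rps27l at 0.0093. Over left-out libraries the differences of the rows that changed sign ran from -0.11 to 0.041 for Gnb2l1, -0.13 to 0.039 for Rpl36a, -0.094 to 0.18 for Rpl39, -0.61 to 0.0025 for Rpl39l, -0.060 to 0.071 for Rpl4, -0.14 to 0.024 for Rps27 and -0.013 to 0.26 for Rps4x.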
